A study of Mus musculus with 18 samples.

Results

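The Igf2r/Airn imprinted cluster was followed here through its 4 genes, *Airn*, *Igf2r*, *Slc22a2* and *Slc22a3*, of 35857 gene names in the deposited annotation on chromosomes with peaks. The genes were taken by name, and each was given a window of its transcripts plus 10 kb on either side. The data were lists of H3K9me3 peaks from 6 ChIP-seq libraries of the E14TG2a mouse embryonic stem cell (mESC) line, 2 from wild-type cells, 2 from *Uhrf1* KO cells and 2 from *Dhx9* KO cells. H3K9me3 is trimethylation of lysine 9 of histone H3, a mark of heterochromatin. UHRF1 works with the methyltransferase DNMT1 to keep DNA methylation through cell division, and DHX9 is an RNA and DNA helicase. The *Uhrf1* KO cells were clonal CRISPR lines. They and the wild-type cells they were compared with carried the inducible silencing reporter of the study, and how the *Dhx9* KO cells were made is not given in the sources used here. The methods of the study call the 2 libraries of a genotype biological replicates, and the labels do not say whether they came from separate cultures or clones.

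*Airn* is a long noncoding RNA made from the paternal chromosome, antisense to *Igf2r*. Its start lies in an imprinting control region that is DNA-methylated on the maternal chromosome, where methylated DNA bound by the zinc finger protein ZFP57 recruits KAP1 and the H3K9 methyltransferase SETDB1. *Airn* silences the paternal copy of *Igf2r*, and in extraembryonic tissue also those of *Slc22a2* and *Slc22a3*. *Igf2r* encodes the receptor that takes insulin-like growth factor 2 and mannose 6-phosphate proteins to lysosomes, and *Slc22a2* and *Slc22a3* encode organic cation transporters. The lists hold no RNA and no parental alleles, so neither expression nor the chromosome of origin was measured.

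On chromosome 17 (mm10) the 4 genes lie in the order *Slc22a3* (12419972 to 12507704, minus strand), *Slc22a2* (12583958 to 12628488, plus strand), *Igf2r* (12682406 to 12769706, minus strand) and *Airn* (12741311 to 12859884, plus strand). The *Airn* start falls in intron 2 of *Igf2r*, which spans 12740407 to 12748643, counted from the 5′ end of a gene of 48 exons. The windows of *Igf2r* and *Airn* share 48.4 kb, so a peak in that stretch counts for both genes.

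The sequence after the *Airn* start carries the feature by which ZFP57 reads imprinted DNA, the hexamer TGCCGC, searched on both strands and written in capitals in the sequences given here (GCGGCA on the strand printed is the same hexamer on the other strand). All are from RefSeq GRCm38.p6 and hold 300 bases. The promoter of *Airn*, chr17:12741061-12741360, plus strand, is shown because the wild-type peak with the most reads lies over it in replicate 1 and a like peak in replicate 2. It held 3 CpG and no hexamer. The 2 windows after it, chr17:12741732-12742031 and chr17:12742331-12742630, plus strand, are shown because they hold 3 hexamers each, with 31 and 19 CpG. They were chosen after the positions of the hexamers were seen. The centre of the stretch under a peak in both wild-type lists, chr17:12742851-12743150, plus strand, is shown as sequence of the same domain with 7 CpG and no hexamer. The *Igf2r* promoter, chr17:12769657-12769956, minus strand, is shown as CpG-rich sequence beside a peak that was called in every list. It held 34 CpG and no hexamer.

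Airn promoter: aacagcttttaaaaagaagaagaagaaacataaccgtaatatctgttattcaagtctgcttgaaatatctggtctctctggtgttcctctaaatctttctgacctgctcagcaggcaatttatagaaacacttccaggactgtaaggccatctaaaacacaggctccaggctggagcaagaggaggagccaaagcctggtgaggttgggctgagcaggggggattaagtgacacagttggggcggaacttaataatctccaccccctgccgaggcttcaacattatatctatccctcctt
First window after the Airn start: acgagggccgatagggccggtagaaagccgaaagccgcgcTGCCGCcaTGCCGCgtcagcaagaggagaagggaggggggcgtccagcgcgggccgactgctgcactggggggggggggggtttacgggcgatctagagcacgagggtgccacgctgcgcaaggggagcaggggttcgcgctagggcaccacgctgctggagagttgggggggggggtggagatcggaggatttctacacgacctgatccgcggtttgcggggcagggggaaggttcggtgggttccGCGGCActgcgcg
Second window after the Airn start: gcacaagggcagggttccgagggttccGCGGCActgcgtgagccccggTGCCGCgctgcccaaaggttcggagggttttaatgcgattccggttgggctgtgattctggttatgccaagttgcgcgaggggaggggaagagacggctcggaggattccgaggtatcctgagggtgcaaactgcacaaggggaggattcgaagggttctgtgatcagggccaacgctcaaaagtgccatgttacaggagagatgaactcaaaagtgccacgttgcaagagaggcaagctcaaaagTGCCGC
Centre of the wild-type domain: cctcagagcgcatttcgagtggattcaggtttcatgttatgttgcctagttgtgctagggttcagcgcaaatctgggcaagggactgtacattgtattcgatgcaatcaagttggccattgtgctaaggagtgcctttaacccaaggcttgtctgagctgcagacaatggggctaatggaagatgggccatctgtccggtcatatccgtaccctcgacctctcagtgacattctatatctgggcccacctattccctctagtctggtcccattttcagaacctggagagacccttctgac
Igf2r promoter: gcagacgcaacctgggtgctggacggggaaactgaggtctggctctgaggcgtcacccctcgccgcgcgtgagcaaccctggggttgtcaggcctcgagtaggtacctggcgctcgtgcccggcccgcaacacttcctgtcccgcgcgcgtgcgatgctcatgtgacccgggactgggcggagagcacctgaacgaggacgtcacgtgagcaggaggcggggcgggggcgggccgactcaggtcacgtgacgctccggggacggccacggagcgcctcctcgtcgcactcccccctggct

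Wild-type cells had a single strong H3K9me3 domain over the *Airn* start. The peak of replicate 1 ran from 12736201 to 12751600, over 15400 bp, with 1527 ChIP reads against 328 background reads and a log2 fold over background of 2.38. That of replicate 2 ran from 12736201 to 12749800, over 13600 bp, with 1381 ChIP and 300 background reads and a log2 fold of 2.42. The replicates thus shared their first base and a common core of 13600 bp, from position -5110 to position 8489 in bp from the *Airn* start, which also holds exons 2, 3 and 4 of *Igf2r*. By reads the peaks ranked at percentile 99.7 of their lists, and by fold at percentiles 93.3 and 93.4.

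No peak was called over any part of this domain in either *Uhrf1* KO library. All 68 bins of 200 bp in the core were under a peak in both wild-type lists and 0 of 68 were under a peak in either *Uhrf1* KO list. In replicate 1 of *Uhrf1* KO cells no peak was called between 12666200 and 12769801, a gap of 103.6 kb, and 8.17% of the gaps in that list were as long. In replicate 2 the gap ran from 12700000 to 12770001 and measured 70.0 kb, with 8.50% of the gaps in its list as long. The *Airn* start was under a peak in both wild-type and both *Dhx9* KO lists.

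**Figure D1:**
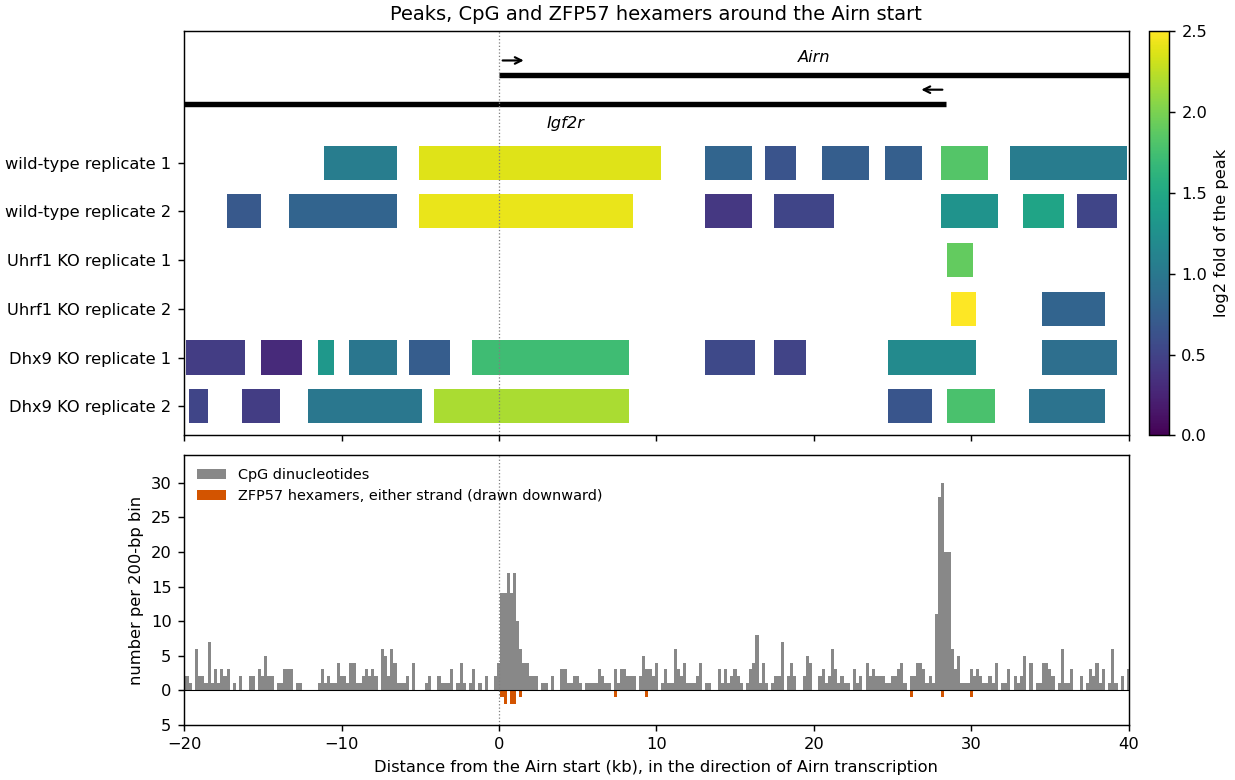
Upper panel: H3K9me3 peaks of the 6 libraries as boxes coloured by log2 fold over background, against distance from the Airn start in kb; black lines are genes, with an arrow at each start. Lower panel: CpG dinucleotides (up) and ZFP57 hexamers on either strand (down) per 200-bp bin. The bright wild-type box over the Airn start, with log2 folds of 2.38 and 2.42, has no counterpart in the Uhrf1 KO rows, while a box near the Igf2r start is present in all 6 rows.

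The *Uhrf1* KO lists did hold broad peaks with far fewer reads. Among peaks of 10 to 20 kb, *Uhrf1* KO replicate 1 had 1376 with as few as 179 ChIP reads, and replicate 2 had 3645 with as few as 199. How far fewer reads in these libraries bear on the missing peak was not tested. The *Uhrf1* KO lists were however called on other background reads than the wild-type and *Dhx9* KO lists. Where a peak had the same limits as one of wild-type replicate 1, the background count was the same in 100% of cases for wild-type replicate 2 and both *Dhx9* KO lists, and in 4.29% and 2.27% of cases for the *Uhrf1* KO lists. Genotype and background therefore cannot be told apart in the comparison of *Uhrf1* KO with wild-type cells. *Uhrf1* KO replicate 1 was also the smallest list, with 70195 peaks and 6703081 ChIP reads in them, against 93916 to 125453 peaks and 16966576 to 20875020 reads in the other 5.

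Few regions as strong as that over the *Airn* start were lost, although the share lost over the whole cluster was that of the genome. Peaks that overlapped or touched in these 4 lists were joined into single intervals, here called regions, and one counted as lost when both wild-type lists and neither KO list had a peak in it. Over the 4 windows 8 of 33 regions called in both wild-type lists were lost, or 24.2%, and over all such regions the share was also 24.2%. A region was gained when both KO lists and neither wild-type list had a peak in it. Of the 14 regions of the windows called in both *Uhrf1* KO lists 0 were gained, beside 8.51% of all such regions. The share lost fell with the strength of the wild-type peak, from 56.1% of regions with a lower wild-type log2 fold under 0.5 to 4.49% of those from 2 to 2.5. Of the 4303 regions whose lower wild-type log2 fold was at least that of the region over the *Airn* start, 2.70% were lost. By the lower of the 2 wild-type read counts, the *Airn* region ranked 6 among the 19296 regions lost. Of the 730 regions with at least as many wild-type reads, 6 were lost, *Airn* included.

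**Figure D2:**
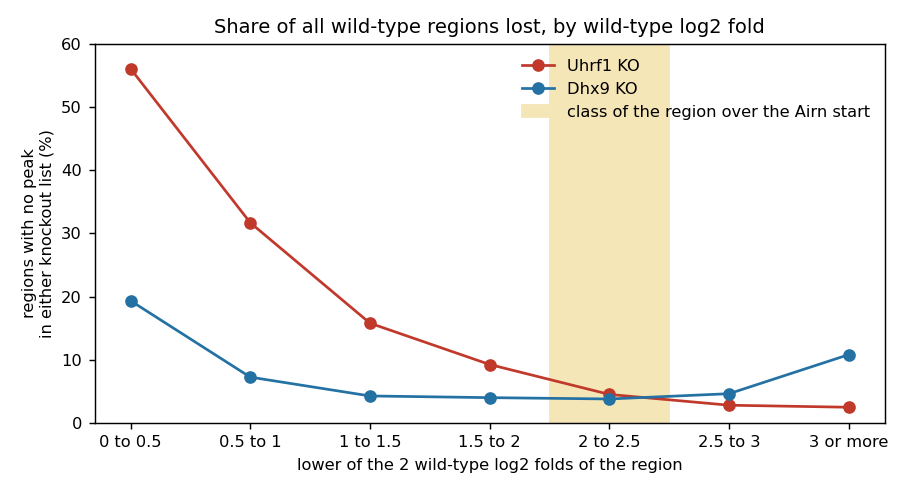
Share of all regions called in both wild-type lists that had no peak in either knockout list, in percent, by the lower of the 2 wild-type log2 folds of the region, for Uhrf1 KO (red) and Dhx9 KO (blue). The Uhrf1 KO share falls from 56.1% in the weakest class to 4.49% in the class that holds the region over the Airn start (shaded), and the Dhx9 KO share is 3.77% there.

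The other 7 lost regions were weak in wild-type cells. The strongest wild-type peaks over them held 67 to 253 reads, with log2 folds of 0.41 to 1.05. Both flanks of the *Airn* domain were among them, 12728001 to 12734800 in *Igf2r* exons and introns and 12754401 to 12757400 and 12758201 to 12764800 in the overlap of *Igf2r* and *Airn* introns. Others lay in *Igf2r* (12711401 to 12716200), after *Slc22a2* (12630401 to 12635000) and in *Slc22a3* (12423601 to 12426000). By gene, 6 of the 10 wild-type regions in the *Igf2r* window were lost, 4 of 12 in the *Airn* window, 1 of 6 in the *Slc22a2* window and 1 of 11 in the *Slc22a3* window. Beside these stand 24.2% of all regions, 31.7% of those with a lower wild-type log2 fold of 0.5 to 1 and 56.1% of those under 0.5. All 4 of the *Airn* window also lay in the *Igf2r* window. Read against the weaker *Uhrf1* KO replicate 1 alone, 22 of 36 regions were lost, and against replicate 2 alone 8 of 33, so the count of 8 was set by replicate 2. The share of all regions lost against 1 replicate alone is not given here, so these counts have no background.

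The other strong domains of the cluster each had a peak in at least 1 *Uhrf1* KO library. Merging the 2 wild-type lists alone gave 38 domains over the windows called in both. The *Airn* domain had the highest lower wild-type log2 fold of the 38, and the next highest was 1.63. The 14 others with a lower wild-type log2 fold of at least 1 leave out the *Airn* domain, which was lost. Of these 14, 8 had a peak in both *Uhrf1* KO lists, 6 had one in replicate 2 only and 0 were lost. Over the genome 11.5% of regions with a lower wild-type log2 fold of at least 1 were lost. That share includes the *Airn* region. It counts regions joined over the wild-type and *Uhrf1* KO lists, not wild-type domains, so it is not a like background for the 14. The *Airn* domain was thus the single wild-type domain of the cluster with a lower log2 fold of at least 1 and no *Uhrf1* KO peak.

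**Figure D3:**
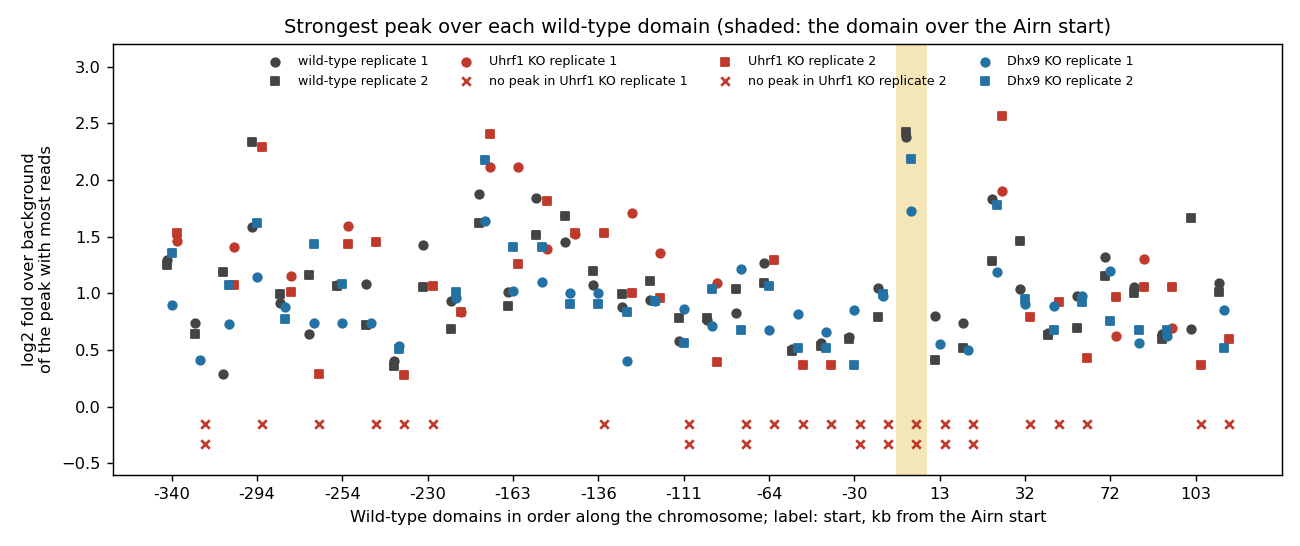
The log2 fold over background of the peak with most reads over each of the 38 wild-type domains of the 4 windows, in chromosomal order, for each library (grey wild-type, red Uhrf1 KO, blue Dhx9 KO; circles replicate 1, squares replicate 2). Red crosses mark domains with no peak in Uhrf1 KO replicate 1 (upper) or 2 (lower). The shaded domain over the Airn start has both crosses under wild-type symbols at 2.38 and 2.42, while the Dhx9 KO symbols stand at 1.72 and 2.18.

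The domain with the next highest lower wild-type fold lay upstream of *Slc22a2*, between genes, from 12556601 to 12578200. It ended 5758 bp before the *Slc22a2* start. It was under 1 peak of 21.4 kb with 1505 reads and a log2 fold of 1.88 in wild-type replicate 1, and under peaks of 582 and 883 reads with log2 folds of 2.73 and 1.63 in replicate 2. In *Uhrf1* KO replicate 1 a peak of 24000 bp held 858 reads with a log2 fold of 2.12, and in replicate 2 a peak of 20.2 kb held 1720 reads with a log2 fold of 2.40. In *Dhx9* KO cells the strongest peak held 1148 reads with a log2 fold of 1.64 in replicate 1 and 1478 reads with 2.18 in replicate 2. Each of the 6 lists thus had a peak over this domain. By the peak with most reads, both *Uhrf1* KO folds were above both wild-type folds of 1.88 and 1.63, and the *Dhx9* KO range overlapped both. With the smaller peak of wild-type replicate 2, at 2.73, the fold ranges of the 3 genotypes overlapped. The *Slc22a2* window reaches only into its last part, so which peaks count for *Slc22a2* depends on where a list ends a peak.

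A peak over sequence just upstream of the *Igf2r* start was also called in every list. It held 226 reads with a log2 fold of 1.83 in wild-type replicate 1 and 197 reads with 1.29 in replicate 2. In *Uhrf1* KO cells it held 59 reads with a log2 fold of 1.90 and 165 reads with 2.56, and in *Dhx9* KO cells 284 reads with 1.19 and 253 reads with 1.78. The peak of *Dhx9* KO replicate 1 ran from 24.7 to 30.3 kb after the *Airn* start. It thus reached further into *Igf2r*, and its reads and fold are for a longer stretch. That of *Dhx9* KO replicate 2 ran from 28.5 to 31.5 kb. The folds of the *Uhrf1* KO libraries were the highest of the 6, whereas their peaks were the narrowest, at 1600 bp each against 3000 and 3600 bp in wild-type cells. Higher folds were not particular to this peak. Of 44454 wild-type domains with a peak in all 4 lists, 17533 had both *Uhrf1* KO folds above both wild-type ones and 7510 both below. In the cluster these numbers were 9 and 1 of 16. The wild-type peaks covered the *Igf2r* start and the *Uhrf1* KO peaks began after it, at 12769801 and 12770001. The wild-type peaks lie 28 to 32 kb from the *Airn* start. The region of the wild-type and *Uhrf1* KO lists around them spanned 3600 bp, with 29.4 CpG per kb and 2 hexamers. The *Airn* region spanned 15400 bp, with 12.9 CpG per kb and 10 hexamers. The hexamer counts are thus for unlike lengths.

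*Slc22a3* carried weaker peaks, and its values turned on the replicate of *Uhrf1* KO cells. An intronic domain from 12447001 to 12449000 was under peaks of 105 and 113 reads in wild-type cells, with log2 folds of 1.59 and 2.34. It had no peak in *Uhrf1* KO replicate 1 and one of 56 reads in replicate 2, with a log2 fold of 2.29. In *Dhx9* KO cells the peaks held 95 and 61 reads, with log2 folds of 1.14 and 1.62. Each library but 1 thus had a peak there. The domain over the *Slc22a3* start, from 12503001 to 12509200, was weak throughout, with log2 folds of 0.41 and 0.36 in wild-type cells, 0.28 in *Uhrf1* KO replicate 2 and 0.54 and 0.51 in *Dhx9* KO cells, and had no peak in *Uhrf1* KO replicate 1. The called length over the *Slc22a3* window was 40.9 ± 1.98 kb in wild-type, 22.5 ± 23.2 kb in *Uhrf1* KO and 26.9 ± 7.66 kb in *Dhx9* KO cells (SD, n = 2 each). Both knockouts lay below both wild-type libraries, with an exact permutation p of 0.333 each.

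Over whole windows *Igf2r* and *Airn* had less of their length under peaks in both *Uhrf1* KO libraries than in either wild-type library. In wild-type cells the peaks covered 63.8% and 61.6% of the *Igf2r* window, 57.4% and 68.1% of that of *Slc22a2*, 60.1% and 47.7% of that of *Airn*, and 39.3% and 36.7% of that of *Slc22a3*. *Igf2r*, *Slc22a2* and *Airn* did not differ beyond the spread of their replicates, and *Slc22a3* was below all of them. In *Uhrf1* KO cells the *Igf2r* window was covered over 1.49% and 19.9%, the *Airn* window over 7.79% and 28.4%, the *Slc22a3* window over 5.67% and 36.1% and the *Slc22a2* window over 45.0% and 59.4%. *Slc22a2* was the most covered of the 4 in both libraries, as it was in wild-type replicate 2 and both *Dhx9* KO libraries, and the ranges of the other 3 overlapped. In *Dhx9* KO cells the values were 63.3% and 43.2% for *Igf2r*, 49.6% and 39.5% for *Airn*, 30.01% and 20.0% for *Slc22a3* and 63.4% and 62.2% for *Slc22a2*.

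**Figure D4:**
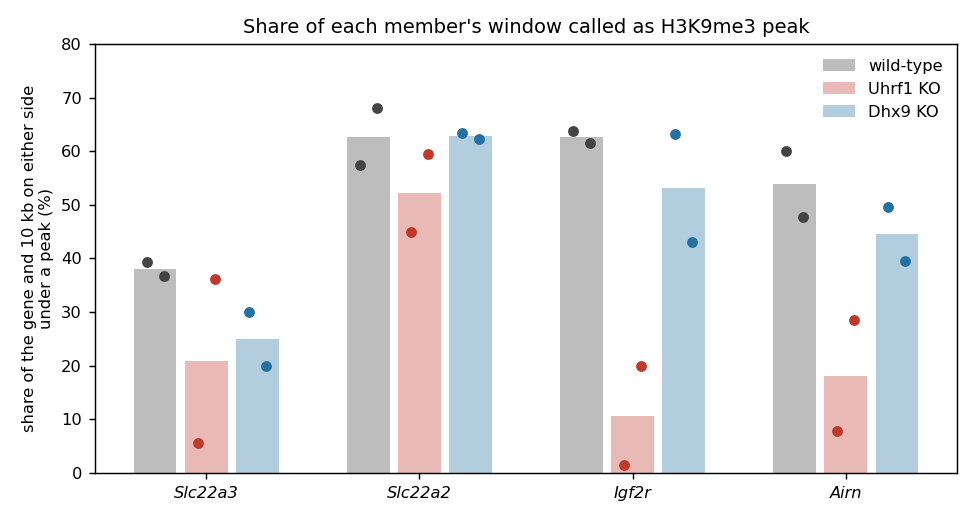
Share of each gene's window (transcripts plus 10 kb on either side) under an H3K9me3 peak, in percent. Bars are means of the 2 libraries of a genotype and points are the libraries. The Uhrf1 KO points of Igf2r, at 1.49% and 19.9%, lie far below the wild-type points at 63.8% and 61.6%, and those of Slc22a2 lie nearest to wild-type.

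The called length over the 4 windows was 188 ± 6.44 kb in wild-type cells (SD, n = 2), 89.2 ± 61.2 kb in *Uhrf1* KO cells (SD, n = 2) and 157 ± 31.8 kb in *Dhx9* KO cells (SD, n = 2). Both knockouts were below both wild-type libraries, with a two-sided exact permutation p of 0.333 in each case, which is the smallest that 2 libraries against 2 can give. For the *Igf2r* window the length was 67.3 ± 1.70 kb in wild-type and 11.5 ± 13.9 kb in *Uhrf1* KO cells, with an exact permutation p of 0.333 (n = 2). For the *Airn* window it was 74.7 ± 12.2 and 25.1 ± 20.2 kb, again with an exact permutation p of 0.333 (n = 2). For the *Slc22a2* window it was 40.5 ± 4.87 and 33.7 ± 6.57 kb, and the groups overlapped. Over the genome the lists covered 14.7% to 15.3% in wild-type, 7.47% and 12.6% in *Uhrf1* KO and 14.7% and 15.0% in *Dhx9* KO cells.

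**Figure D5:**
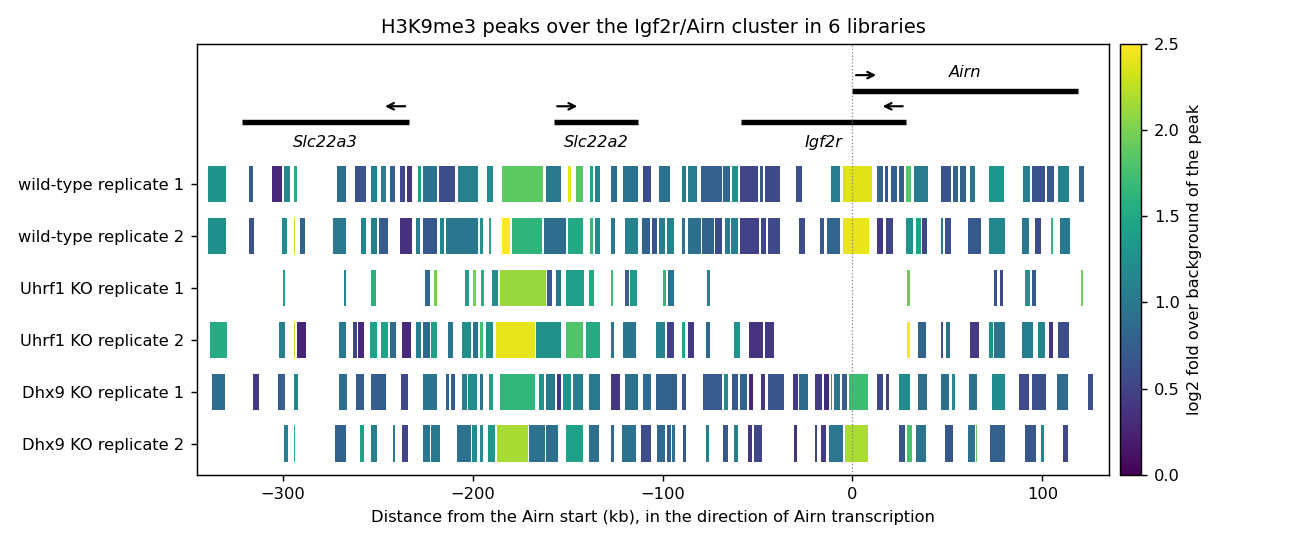
H3K9me3 peaks of the 6 libraries across the cluster as boxes coloured by log2 fold over background, against distance from the Airn start in kb. Black lines are the 4 genes, with an arrow at each start. The Uhrf1 KO rows are empty over most of Igf2r and over the Airn start but keep a bright block upstream of Slc22a2, and the Dhx9 KO rows keep both.

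At the level of gene starts, those of *Slc22a3*, *Slc22a2*, *Igf2r* and *Airn* were all under a peak in both wild-type lists, as were 16.5% of gene names. No peak lay over the starts of *Igf2r* and *Airn* in either *Uhrf1* KO list, while those of *Slc22a2* and *Slc22a3* were covered in replicate 2. Of the 5934 genes with a covered start in both wild-type lists, 36.3% had none covered in either *Uhrf1* KO list, so 2 of 4 is near the background. In *Dhx9* KO cells the *Airn* and *Slc22a2* starts were covered in both lists, the *Igf2r* start in replicate 1 and the *Slc22a3* start in neither, beside 12.3% of genes with none.

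In *Dhx9* KO cells the *Airn* domain was kept. Replicate 1 had a peak of 10000 bp from 12739601 to 12749600 with 706 ChIP and 214 background reads and a log2 fold of 1.72, and a weaker one of 109 reads before it, from 12735601 to 12738200. Replicate 2 had a peak of 12400 bp from 12737201 to 12749600 with 1207 ChIP and 267 background reads and a log2 fold of 2.18. Both peaks ended at the same base, 200 bp before the shorter wild-type peak. Of the 68 core bins, 60 and 63 were under a peak, and 56 in both libraries. All 6 core bins that hold a hexamer were among these 56. The peaks held 70.6 and 97.3 ChIP reads per kb, against 99.2 and 102 per kb in wild-type cells, on background of 21.3 to 22.1 reads per kb in the 4 lists. These ChIP values are not scaled to library size. The relative ChIP library sizes implied by counts and folds were 1.12 and 1.11 in *Dhx9* KO, against 1 and 0.96 in wild-type cells.

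Both *Dhx9* KO folds at *Airn* were below both wild-type folds, with a mean difference of -0.45 on the log2 scale. This held for 37.6% of the 64007 wild-type domains with a peak in all 4 lists, and the median difference over them was -0.16. Among the 7142 domains with both wild-type folds at least 2, a set chosen on the wild-type values, it held for 78.4% with a median of -0.58, and 66.2% of them had a lower difference than *Airn*. The *Airn* difference was therefore not outside what strong domains showed. The cluster had 32 domains with a peak in all 4 lists, whatever their strength. Of these 11 had both *Dhx9* KO folds below the wild-type ones, beside 37.6% of all domains. Another 5 had both above, beside 8.26% of all domains, and the median difference over the 32 was -0.04. Of the 27 regions of the windows called in both *Dhx9* KO lists 0 were gained, beside 8.74% of all such regions. Over the windows 2 of 32 regions were lost in *Dhx9* KO cells, beside 6.97% of all regions. These lay between genes upstream of *Slc22a3* (12511601 to 12514200, with 72 and 82 wild-type reads) and in the overlap of *Airn* and *Mas1* (12844001 to 12847200, with 114 and 79). Without *Dhx9* KO replicate 1 the count was 6 of 33, and without wild-type replicate 2 it was 5 of 38, with no share over all regions given for either. Of the 4332 regions at least as strong as the *Airn* region of this comparison, 6.16% were lost, and *Airn* was not.

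Read counts could be tested only where a region was called in all 4 libraries of a comparison, so the *Airn* domain has no such test in *Uhrf1* KO cells. ChIP reads over each region were compared per called length with edgeR's quasi-likelihood test and Benjamini-Hochberg adjustment over all regions tested. With at least 80% of the region covered in each library, 1 region of the cluster could be tested against *Dhx9* KO, over the 3′ end of *Slc22a2* (12620201 to 12628400), with 397 and 395 reads in wild-type and 407 and 417 in *Dhx9* KO cells. Its log2 change was 0.12 ± 0.16 (SE), with an adjusted p of 0.859 in edgeR, beside 0.596% of regions called. No region of the cluster reached this coverage in the comparison with *Uhrf1* KO.

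With at least 50% covered, 15 regions of the cluster could be tested against *Dhx9* KO and 0 were called by edgeR or by DESeq2, beside 0.131% of all regions. Over all regions tested, 3104 of 29660 had an unadjusted p under 0.05 in edgeR, and of the 15 cluster regions 1 did. That one was the region over the *Airn* start, from 12721401 to 12751600, with 1734 and 1706 reads in wild-type and 1260 and 1680 in *Dhx9* KO cells. Its log2 change per called length was -0.38 ± 0.13 (SE), with an adjusted p of 0.295 in edgeR. Without *Dhx9* KO replicate 2 the change was -0.55 with an adjusted p of 0.0171 in edgeR, and without replicate 1 it was -0.23 with an adjusted p of 0.335. In these fits the 1 *Dhx9* KO library left is assumed to vary as the wild-type libraries do. Over the other alternatives the adjusted p ranged from 0.208 to 0.996, and the change was below 0 in each of them. Against *Uhrf1* KO 5 regions could be tested at this coverage and 0 were called by edgeR or DESeq2, beside 1.16% of all regions. An unadjusted p under 0.05 in edgeR was found for 3089 of all 16321 regions tested, and for 2 of the 5 cluster regions. These were a region in *Plg* and the flank of *Slc22a3* (12401801 to 12411800), with a log2 change of 0.38 ± 0.15 (SE) and an adjusted p of 0.195, and one in an *Slc22a3* intron (12487201 to 12490800), with -0.59 ± 0.22 (SE) and 0.174. The region of the *Slc22a2* start and its upstream domain (12548601 to 12599800) had a log2 change of -0.01 ± 0.13 (SE), with an adjusted p of 0.975 in edgeR.

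The region over the *Airn* start held 10 hexamers. Its core, the stretch called in both wild-type lists, held 178 CpG, or 13.1 per kb, with 46.9% GC and 16.6% soft-masked repeats. It held 9 hexamers, of which 8 lay from 140 to 1314 bp after the *Airn* start, within 1180 bp that held 83 CpG, or 70.3 per kb. The ninth lay 7340 bp after the start. Of the core bins 8.82% held a hexamer, against 2.55% of the bins under a peak in both wild-type lists over the genome. At least 8 hexamers in 1.2 kb were found in 16 of the 84914 stretches of that length or more under a peak in both wild-type lists, or 0.0188%. Both limits were set from the *Airn* core, which is therefore among the 16 by construction. Of the 8 regions lost in *Uhrf1* KO cells 2 held a hexamer, and of the 14 called in all 4 lists 8 did. Over the genome 5671 of 19296 lost and 17476 of 40511 kept regions did. These shares were not taken at equal length. In the cluster the lost regions ran from 2400 to 15400 bp and the kept ones from 3400 to 51200 bp. The lost regions held 11 hexamers in all, 10 of them in the *Airn* region, and the kept ones 16. The median CpG density was 9.92 per kb in the lost and 10.7 per kb in the kept regions, beside 10.0 and 10.1 per kb over all lost and all kept regions. Of all promoters of 300 bases in the RefSeq table, 11.6% held a hexamer, and of the 4 members that of *Slc22a2* did.

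The 5 genes whose peak reads over the 6 lists were most like those of *Airn*, leaving out genes whose windows overlap it, were *Wnk2*, *Tln2*, *Iqsec3*, *Plb1* and *D7Ertd443e*. Likeness was the Euclidean distance over the 6 lists of log2(CPM + 1), where CPM are the peak reads of a gene's window scaled to all peak reads of the list, and the distances were 0.39, 0.44, 0.53, 0.55 and 0.57. *Airn* had a CPM of 210 and 181 in wild-type, 39.2 and 82.5 in *Uhrf1* KO and 164 and 157 in *Dhx9* KO cells, and *Wnk2* had 202 and 195, 36.1 and 95.7, and 183 and 133.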

How the data were processed

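H3K9me3 ChIP-seq peak lists of 6 libraries were analysed, 2 per genotype. The other 12 samples of the series (inputs and reporter experiments) were not analysed here. The authors aligned reads to GRCm38/mm10 with Bowtie2 2.3.4.3, subsampled them with SAMtools (stated for the wild-type and Uhrf1 KO comparison) and called peaks per library with epic2 0.0.51 in 200-bp bins, keeping duplicates, with wild-type input named as background. The submitters' processing notes list this version under SICER, with Picard 2.8.0 and deepTools 3.0.2. Per the file headers, each deposited peak has its ChIP and input read counts, a p-value adjusted as false discovery rate, and a log2 fold over background. Subsampling and separate calling mean that a peak's absence says only that it did not pass in that library. PCR duplicates were kept, so counts are not independent molecules. Gene positions came from the deposited annotation, and the reference GRCm38.p6 holds every peak within its chromosome lengths.

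Here peaks that overlap or touch were merged over the 4 lists of a comparison (Python 3.11.15, pandas 2.3.3). edgeR 4.0.16 (R 4.3.3) compared the counts, with TMM scaling of length-adjusted counts, an offset for called length and a false discovery rate of 0.05. DESeq2 1.42.0 was an alternative. On simulated data with 200 regions changed by 1 on the log2 scale, the test found 174 over 2528 regions for Uhrf1 KO. It made 6 false calls there. For Dhx9 KO it found 171 of 200 over 4701 regions, with 9 false calls. Both numbers of regions are those of the sets with at least 80% coverage. The sets with at least 50% coverage, where most cluster regions were tested, were not simulated. Whether simulated counts spread as the real replicates do was not tested, so these shares are not the power of the test on the real counts. By rule, regions of the 4 windows with a peak in 2 or more lists could be named, neighbouring genes were given by counts, and the 5 genes nearest to Airn by peak reads were named. The members, gene lists and tests were chosen with earlier results of these data known. The coverage minimum of 50% for the region over the Airn start, with its alternatives, was added after the data were seen. One lost region is counted but not described here.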

Additional observations from a re-analysis of the deposited data

How the results depend on the processing

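With a false discovery rate of 1e-10, a log2 fold of at least 1 or an equal number of peaks per list, the regions lost in *Uhrf1* KO cells numbered 5 of 19, 3 of 15 and 3 of 17 in place of 8 of 33, and 6 to 12 under the other alternatives that keep all libraries. Leaving out 1 library gave 8 to 22. The shares over all regions under these alternatives are not given here. The regions lost in *Dhx9* KO cells numbered 1 of 18 at the stricter rate, 4 of 15 at the fold limit, 1 of 24 with no flank and 4 of 32 where a KO peak had to cover 50% of a region, in place of 2, and 2 to 6 without 1 library. The 68 wild-type and 0 *Uhrf1* KO bins of the *Airn* core were the same under all 3 peak filters, and the 56 *Dhx9* KO bins became 50 under each. The called length of *Uhrf1* KO minus wild-type cells was -53.9, -33.2 and -28.6 kb under these filters in place of -99.2 kb. That of *Dhx9* KO cells, -31.3 kb, turned to 3.67 kb at the stricter rate, and the cause was not tested. Over all regions tested on counts, the calls of *Uhrf1* KO numbered 221 of 2528, and 111 with DESeq2, 0 with equal library sizes (5 at an unadjusted p under 0.05), 0 of 40511 with any region called in every library (4998 unadjusted), and 55 to 356 without 1 library (67 and 55 without wild-type replicates 1 and 2, 356 without *Uhrf1* KO replicate 1). Of the 221, 140 were lower and 81 higher in edgeR, against 82 and 29 with DESeq2 and 167 and 134 without the length offset. The calls of *Dhx9* KO numbered 28 of 4701, and 11 with equal library sizes, 15 without the length offset, 2 with any region, and 9 to 734 without 1 library (12 and 9 without wild-type replicates 1 and 2, 480 and 734 without *Dhx9* KO replicates 1 and 2). The log2 change at the 3′ end of *Slc22a2* turned from 0.12 to -0.034 without wild-type replicate 1, and ran from -0.034 to 0.28 over the libraries left out. With the replicate number as a block the *Uhrf1* KO calls numbered 212 and the *Dhx9* KO calls 80. Libraries of one number share only that number: the correlation of their deviations over regions was 0.006 for *Uhrf1* KO and 0.003 for *Dhx9* KO.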

Other observations

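The windows of 12 neighbouring genes held 19 regions outside the member windows called in both wild-type lists, of which 9 were lost in *Uhrf1* KO cells and 1 of 17 in *Dhx9* KO cells, beside 24.2% and 6.97% over all regions. *Agpat4*, a lysophosphatidate acyltransferase, had 44.0 and 40.8 kb under peaks in wild-type, 6.45 and 13.0 kb in *Uhrf1* KO and 21.8 and 20.0 kb in *Dhx9* KO cells. *Map3k4*, a kinase of the stress MAP kinase pathways, had 67.6 and 50.4 kb in wild-type, 31.4 and 50 kb in *Uhrf1* KO and 50.4 and 31 kb in *Dhx9* KO cells. Both were picked after their values were seen. *Mas1* had 26.0 and 17.6 kb in wild-type, 6.2 and 21.8 kb in *Uhrf1* KO and 24.96 and 13.6 kb in *Dhx9* KO cells, and *Plg*, the gene of plasminogen, had 22.2 and 23.6 kb, 5.2 and 28.2 kb, and 18.4 and 15.2 kb. The windows of these last genes overlap those of *Airn* and *Slc22a3*, and their *Uhrf1* KO and wild-type ranges overlapped. *Acat2*, *Acat3*, *Tcp1*, *Mrpl18* and *Wtap* had 0 kb under peaks in all 6 lists.

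The 16 stretches under a peak in both wild-type lists with at least 8 ZFP57 hexamers in 1.2 kb were chosen with limits taken from the *Airn* core, so *Airn* is among them by construction. In *Uhrf1* KO cells 4 of them had no peak in either list, 10 had one in both and 2 in replicate 2 only. Of all 85949 wild-type domains of any strength 22.5% had none, which is near the share of the 16. The 16 were not matched to these domains by wild-type fold, and the share of regions lost fell with that fold. In *Dhx9* KO cells 0 had none, 15 had one in both and 1 in replicate 2 only, beside 6.40% of all domains with none. The 4 without a *Uhrf1* KO peak were those over *Airn* and *Igf2r*, *Mest*, *Snrpn* and *Atp10a*, and they are named here because the count is small. The wild-type log2 folds were 2.10 and 1.86 at *Mest*, 2.11 and 2.44 at *Snrpn* and 1.12 and 0.78 at *Atp10a*, and those of *Dhx9* KO cells 1.24 and 1.37 at *Mest* and 0.92 and 1.36 at *Snrpn*.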
